A study of Mus musculus with 4 samples.

Results

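The 200 windows of 1 Mb that held the most H3K4me2 peaks on the autosomes of mouse embryonic stem cells were examined. The 19 autosomes of mm9 were cut into 2482 windows from position 0, the centres of the deposited H3K4me2 peaks were counted in each, and the 200 highest were kept, with ties taken by chromosome number and then by start. They are called the dense windows here, and make up 8.06% of the windows. They held 11646 of the 32005 autosomal H3K4me2 peaks (36.4%) and 2298 of the 5095 autosomal LSD1 peaks (45.1%). The count of H3K4me2 peaks chose the windows, so counts and reads of the H3K4me2 library in them are a description, with no test.

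Chromatin came from 129SV embryonic stem cells (R1), cultured with 1000 U/ml leukaemia inhibitory factor and taken at passages 13 to 18. All libraries shared this source. The groups were genomic DNA without immunoprecipitation (Input), DNA recovered with control IgG, DNA recovered with an antibody labelled LSD1, and DNA recovered with an antibody against H3K4me2, the dimethylated lysine 4 of histone H3. The catalogue number that the labels give for the LSD1 antibody is one known for another supplier's antibody against H3K27me3, so the name LSD1 follows the label throughout. Each group held 1 library, of 3801082 reads (Input), 4755619 (IgG), 5833862 (LSD1) and 6416657 (H3K4me2). No comparison between libraries or between windows therefore has a replicate check, and no p-value is given. Bracketed ranges are 95% intervals that cover counting error only. They are narrow where reads of many windows were pooled, and the spread over windows is given beside them.

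H3K4me2 is laid down by methyltransferases of the MLL family and marks active and poised promoters and enhancers. LSD1, also called KDM1A, is an enzyme that takes methyl groups off mono- and dimethylated lysine 4, mostly as part of complexes with CoREST and histone deacetylases, and in embryonic stem cells it is known for acting on enhancers during differentiation. Promoters and enhancers are spread unevenly along mammalian chromosomes and are crowded in gene-rich stretches. The windows were therefore examined for how often H3K4me2 peaks held an LSD1 peak, for reads in and between peaks, for both controls, and for how the windows lie beside each other.

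The fullest window lay on chromosome 7 from 52000001 to 53000000, with 140 H3K4me2 peaks and 31 LSD1 peaks. Next came 2 neighbours on chromosome 10, of which the one from 80000001 to 81000000 held 136 H3K4me2 peaks and 37 LSD1 peaks. The other, from 79000001 to 80000000, held 130 and 27. The 37 LSD1 peaks were the highest count of any autosomal window. The window of chromosome 11 from 97000001 to 98000000 held 123 H3K4me2 and 30 LSD1 peaks. That of chromosome 19 from 5000001 to 6000000 held 107 and 35, and that of chromosome 4 from 133000001 to 134000000 held 103 and 15. These last 2 windows were close in H3K4me2 peaks and far apart in LSD1 peaks. The window of chromosome 7 from 29000001 to 30000000 held 102 H3K4me2 and 23 LSD1 peaks, and that of chromosome 15 from 79000001 to 80000000 held 97 and 18. The window of chromosome 7 from 148000001 to 149000000 held 96 and 32, and that of chromosome 11 from 69000001 to 70000000 held 95 and 24. Only 7 windows exceeded 100 H3K4me2 peaks.

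Over the dense windows the number of H3K4me2 peaks had a median of 54, against 5 in the other autosomal windows. At the limit of 39 peaks stood 14 windows, of which 4 were inside and 10 outside. The last 2 inside, on chromosome 2 from 31000001 and chromosome 3 from 87000001, held 4 and 6 LSD1 peaks. The first 2 outside, on chromosome 4 from 43000001 and chromosome 5 from 124000001, held 3 and 7. Their numbers of LSD1 peaks overlapped across the limit. H3K4me2 peaks covered 5.52% of the length of the dense windows, against 2.83% of the next 200 windows by rank and 0.747% of all others. Here and below, the other windows are all autosomal windows that are not dense, so they include the next 200. Inside the windows the peaks were not in 1 clump: of the 2000 stretches of 100 kb in the dense windows 241 (12.1%) held no H3K4me2 peak, and 75 windows had no empty stretch. The fullest stretch of a window held a median of 24.2% of its H3K4me2 peaks. The most uneven window lay on chromosome 9 from 114000001, with 28 of its 54 peaks in 1 stretch.

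LSD1 peaks were more frequent per H3K4me2 peak in the dense windows. They held 19.7 LSD1 peaks per 100 H3K4me2 peaks (18.9 to 20.6). The next 200 windows held 14.9 (14.0 to 15.9), and all other windows, the next 200 included, 13.7 (13.2 to 14.3). Counted from the side of the mark, 2096 of 11646 H3K4me2 peaks in the dense windows shared at least 1 bp with an LSD1 peak, which is 18.0% (17.3 to 18.7), against a background of 14.3% over all autosomal H3K4me2 peaks. In the other windows the share was 12.1% (11.7 to 12.6), so that the dense windows stood 1.49 times higher (1.41 to 1.57). The share was higher in the dense windows than in the other windows of the same chromosome on 18 of 19 autosomes. The exception was chromosome 13, with 11.7% (7.21 to 17.7) in 3 dense windows and 12.6% (10.7 to 14.7) in the others. Not all of the 18 differences were clear of counting error. The intervals of dense and other windows overlapped on chromosomes 1, 3, 5, 6, 12, 16 and 18. On chromosome 1 the shares were 13.40% (10.5 to 16.8) and 13.35% (11.5 to 15.3).

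**Figure D1:**
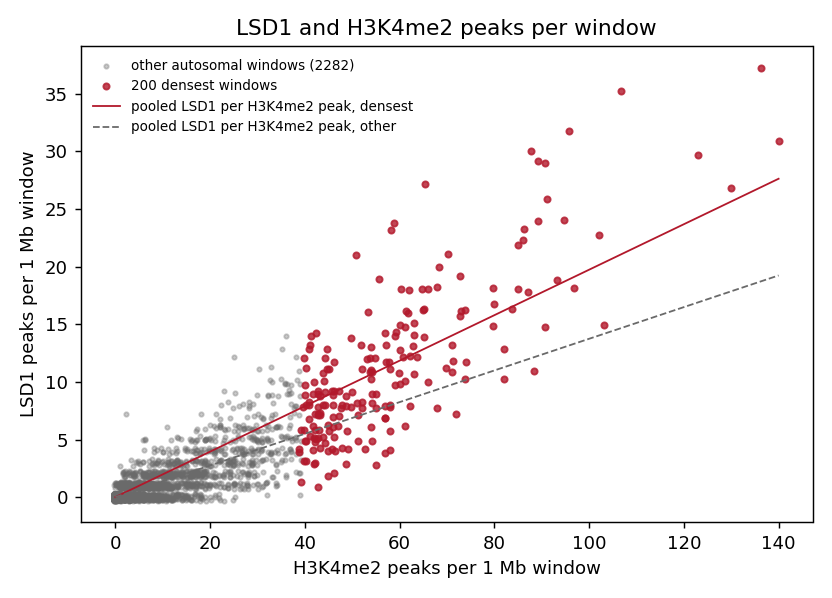
Each point is 1 autosomal window of 1 Mb, with its number of H3K4me2 peaks on the horizontal and of LSD1 peaks on the vertical axis, moved slightly so that points do not hide each other. The 200 densest windows are red, and the lines give the pooled numbers, 19.7 LSD1 peaks per 100 H3K4me2 peaks in the dense and 13.7 in the other windows; the red points spread widely around their line.

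Single dense windows varied widely around the pooled value. Over the 199 dense windows of full length, the lowest had 2.33 LSD1 peaks per 100 H3K4me2 peaks, the median 18.6 and the highest 41.5. None was without an LSD1 peak, against a background of 52.6% of windows with at least 1. That background includes windows with few or no H3K4me2 peaks. Of the next 200 windows by rank, only 2 were without an LSD1 peak. The highest number per 100 H3K4me2 peaks belonged to chromosome 9 from 107000001 to 108000000, with 27 LSD1 peaks to 65 H3K4me2 peaks. The window of chromosome 17 from 34000001 to 35000000 had 24 to 59, and that of chromosome 14 from 55000001 to 56000000 had 23 to 58. The partial last window of chromosome 4, from 155000001, had 21 to 51. All of these exceeded 39 LSD1 peaks per 100, about double the median. Next came the window of chromosome 11 from 3000001 to 4000000, with 14 to 41, or 34.1 per 100. It was also the dense window with the most Input reads and the lowest in-peak LSD1 to IgG ratio, as described below. At the low end, chromosome 6 from 39000001 to 40000000 had 1 LSD1 peak to 43 H3K4me2 peaks, and chromosome 1 from 72000001 to 73000000 had 1 to 39. Chromosome 13 from 98000001 and chromosome 8 from 35000001 had 2 each, to 46 and 45 H3K4me2 peaks, and chromosome 10 from 62000001 had 3 to 55.

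The LSD1 to IgG ratio in the same peaks differed less than the calls. For the window on chromosome 6, LSD1 over IgG within H3K4me2 peaks, in reads per 1000000 reads of each library (RPM), was 3.27 (2.79 to 3.86). In the window of chromosome 9 with the highest number of LSD1 peaks per H3K4me2 peak it was 3.75 (3.35 to 4.21). These intervals overlapped, although the calls per 100 H3K4me2 peaks differed from 2.33 to 41.5. Across 200 dense windows the in-peak LSD1 to IgG ratio and the calls per 100 H3K4me2 peaks had a Spearman correlation of 0.314 and a Pearson correlation of 0.217, a description over windows that share the same libraries. The share of H3K4me2 peaks with an LSD1 peak had an interval above the pooled autosomal share in 26 of the 199 windows (13.1%), against a background of 3.61% of windows with at least 10 H3K4me2 peaks. An interval below it was found in 2 of the 199 (1.01%), against a background of 0.903%. Dense windows hold more peaks, which narrows these intervals.

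H3K4me2 peaks in the dense windows were also wider and held more reads. The median width was 804 bp against 701 bp in the other windows, and the median H3K4me2 density was 6.94 RPM per kb against 6.55. The median H3K4me2 peak held 18 LSD1 reads and 4 IgG reads in the dense windows and 14 and 3 in the others. When peaks of the other windows were weighted to the widths found in the dense windows, in 5 classes, their share with an LSD1 peak was 14.3% in place of 12.1%. Weighted to H3K4me2 density in the same way it was 14.4%, and weighted to both, in 25 classes, 15.5%, with the dense share higher in 16 of the 25. In each of the 5 width classes the share was higher in the dense windows, by least below 527 bp, where it was 5.51% (4.49 to 6.69) against 5.12% (4.51 to 5.79). It was 34.5% (32.8 to 36.2) against 27.9% (26.4 to 29.5) from 1110 bp.

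Weighted to the number of LSD1 reads in the peak, the share in the other windows was 18.2%, next to 18.0% in the dense windows. H3K4me2 peaks with 10 to 19 LSD1 reads held an LSD1 peak in 5.48% of cases (4.83 to 6.18) in the dense windows and in 5.68% (5.20 to 6.19) in the others. With 20 to 29 reads the shares were 22.5% (20.9 to 24.1) and 22.6% (21.2 to 24.0). With 40 to 59 reads they were 55.6% (52.2 to 59.0) and 55.6% (52.0 to 59.2). In these 3 classes each share lay within the interval of the other. With 0 to 9 reads the share was higher in the dense windows, at 1.06% (0.666 to 1.60) against 0.602% (0.420 to 0.836), each outside the interval of the other although the intervals overlapped. LSD1 peaks were called on these reads, so this compares how calls followed reads, not a second measurement. Peak by peak, LSD1 over IgG had its whole interval above 1 at 7025 of 11646 dense H3K4me2 peaks (60.3%), against a background of 54.7% and 51.4% in the other windows; more reads per peak narrow that interval too.

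When H3K4me2 peaks were pooled, LSD1 over IgG was close in value in and beyond the dense windows. It was 3.41 (3.38 to 3.44) in the dense windows, 3.41 (3.37 to 3.45) in the next 200 and 3.36 (3.34 to 3.39) in all others. The dense ratio divided by the other was 1.01 (1.00 to 1.03). Without peaks touching an IgG peak, in the same windows, the ratios were 3.44 (3.41 to 3.47) and 3.47 (3.44 to 3.50), in the opposite order. When the windows were also ranked again without those peaks, the dense ratio was 3.46 (3.43 to 3.49) and 1.004 times the other (0.992 to 1.02). The order of the in-peak ratios thus changed with the handling of these few peaks. The H3K4me2 to IgG ratio, a description since the rule used that library and with IgG shared between the ratios, was 6.50 (6.45 to 6.56) and 6.63 (6.58 to 6.68). Against Input, which IgG exceeded in these peaks, both dense ratios were lower: 6.90 (6.81 to 6.99) against 7.24 (7.15 to 7.32) for LSD1, and 13.2 (13.0 to 13.3) against 14.3 (14.1 to 14.4) for H3K4me2. IgG exceeded Input 2.02-fold (1.99 to 2.05) in the H3K4me2 peaks of the dense windows and 2.15-fold (2.13 to 2.18) in those of the others.

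Over the dense windows of full length the in-peak LSD1 to IgG ratio ran from 1.49 to 4.25, with 50% of windows between 3.27 and 3.64. The lowest was the window of chromosome 11 from 3000001 to 4000000. It had 5579 Input reads, 7561 IgG reads, 9778 LSD1 reads and 11124 H3K4me2 reads, with 41 H3K4me2 peaks and 14 LSD1 peaks. No other autosomal window of full length had as many Input, IgG or LSD1 reads. Its Input was 2.75 times the median of the dense windows, and it was the only autosomal window above 2 times the median Input of all windows. In its H3K4me2 peaks the ratio to IgG was 1.49 (1.40 to 1.58) for LSD1 and 2.003 (1.89 to 2.12) for H3K4me2. Chromosome 11 had the lowest pooled in-peak LSD1 to IgG ratio of any chromosome's dense windows, 3.12 (3.05 to 3.19). Without this window it was 3.45 (3.37 to 3.54). Within LSD1 peaks of the dense windows LSD1 over IgG was 4.89 (4.78 to 5.00), and without this window 5.60 (5.47 to 5.74).

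Calls and reads were set side by side for classes of windows by their number of H3K4me2 peaks. The share of H3K4me2 peaks with an LSD1 peak was 11.1% (9.41 to 12.9) in windows with 1 to 4 H3K4me2 peaks, 10.7% (9.57 to 12) with 5 to 9 and 10.5% (9.75 to 11.3) with 10 to 19. It was 12.8% (11.9 to 13.7) with 20 to 29, 14.1% (13.1 to 15.1) with 30 to 39 outside the dense windows, and 17.9% (17.2 to 18.6) in the 199 dense windows of full length. The share was thus level up to 19 peaks per window and higher from there on. The in-peak LSD1 to IgG ratio without peaks touching an IgG peak was 3.78 (3.65 to 3.91) with 1 to 4 H3K4me2 peaks, 3.51 (3.46 to 3.57) with 10 to 19 and 3.43 (3.40 to 3.46) in the dense windows, so it did not rise along the classes. With all peaks it was 2.47 (2.40 to 2.54) in the lowest class, where 5 of 1263 H3K4me2 peaks touched an IgG peak, and 3.41 in the dense windows.

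**Figure D2:**
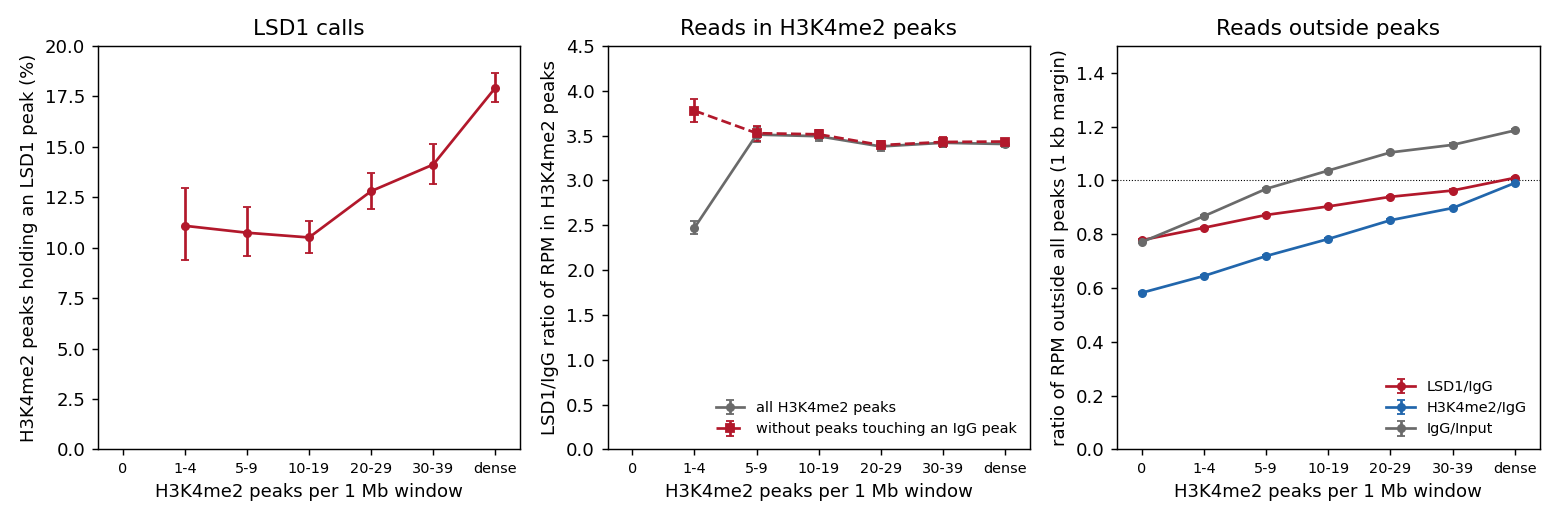
Autosomal windows are grouped by their number of H3K4me2 peaks, with the 199 dense windows of full length at the right of each panel, and bars are 95% counting intervals. The left panel gives the percent of H3K4me2 peaks that hold an LSD1 peak, between 10.5% and 17.9%; the middle panel the LSD1 to IgG ratio of RPM in H3K4me2 peaks, with and without peaks touching an IgG peak; the right panel the ratios of RPM outside all peaks, each of which is higher in each denser class.

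Outside peaks the dense windows differed in every library. Reads were counted outside the peaks of all 3 lists with a margin of 1 kb, which left 86.0% of the dense windows and 97.8% of the others. LSD1 over IgG there came to 1.009 (1.006 to 1.013) in the dense windows, 0.959 (0.955 to 0.962) in the next 200 and 0.874 (0.873 to 0.875) in all others. The dense ratio was 1.15 times that of the others (1.15 to 1.16). H3K4me2 to IgG was 0.990 (0.987 to 0.994) and 0.734 (0.733 to 0.735). IgG to Input moved as well, at 1.19 (1.18 to 1.19) and 0.955 (0.954 to 0.956), so the controls differed between the windows in the same direction as the ChIP libraries. Where the ratios stand against 1 depends on the scaling. Scaled to reads outside all peaks in place of all reads, the dense windows had 1.13 for LSD1 and 1.30 for H3K4me2.

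By single windows, the outside LSD1 to IgG interval lay above 1 in 46 of the 199 dense windows of full length, against a background of 2.25% of autosomal windows. It lay below 1 in 37 of them, against a background of 79.7%. For H3K4me2 to IgG, the library the rule used, it lay above 1 in 51 of the 199, against a background of 2.63%, and below 1 in 65, against 90.6%. The IgG to Input interval lay above 1 in 165 of the 199, against a background of 27.3%, and below 1 in 3 of them, against 45.4%. The highest outside LSD1 to IgG ratio was 1.18 (1.12 to 1.24) on chromosome 4 from 132000001 to 133000000. It was 1.17 (1.11 to 1.23) on chromosome 11 from 97000001, 1.16 (1.11 to 1.22) on chromosome 17 from 28000001, 1.16 (1.099 to 1.22) on chromosome 7 from 52000001 and 1.15 (1.09 to 1.203) on chromosome 17 from 29000001. These 5 windows held between 66 and 140 H3K4me2 peaks, and 4 of them lay in runs of 4 or more dense windows. The lowest was 0.860 (0.814 to 0.909) on chromosome 2 from 25000001, followed by 0.876 (0.832 to 0.922) on chromosome 2 from 180000001 and 0.881 (0.832 to 0.932) on chromosome 15 from 75000001. On chromosome 8 from 107000001 it was 0.888 (0.833 to 0.947), and on chromosome 17 from 25000001 it was 0.890 (0.845 to 0.939). The 5 lowest windows had 8 to 18 LSD1 peaks each. Few reads outside peaks relative to IgG thus did not go along with few LSD1 peaks in these windows. In LSD1 peaks per H3K4me2 peak, those on chromosomes 15 and 17 exceeded the upper quartile of the dense windows. So did that on chromosome 2 from 25000001. Those on chromosome 8 and on chromosome 2 from 180000001 lay between the quartiles.

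Dense windows have less room far from peaks. Of their length outside peaks, 45.4% lay within 10 kb of a peak, against 9.67% in the other windows. At 1 to 2 kb from a peak LSD1 over IgG stood at 1.19 (1.18 to 1.21) in the dense and 1.203 (1.19 to 1.21) in the other windows. At 5 to 10 kb it was 1.04 (1.03 to 1.05) against 0.981 (0.976 to 0.986), and at 20 to 50 kb 0.923 (0.915 to 0.931) against 0.893 (0.891 to 0.896). At 50 kb and more it was 0.859 (0.848 to 0.870) against 0.816 (0.814 to 0.817). The ratio thus fell with distance in both sets of windows, and from 2 kb outwards it was between 1.03 and 1.06 times higher in the dense windows. Weighted to the distances found in the dense windows, the other windows had a ratio of 0.972, and the dense windows stood 1.04 times above them in place of 1.15 times. For H3K4me2 to IgG the same weighting left 1.08 in place of 1.35.

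The IgG to Input ratio behaved differently with distance. It was 1.43 (1.41 to 1.45) in the dense and 1.41 (1.40 to 1.43) in the other windows within 1 kb of a peak, and 1.25 (1.24 to 1.27) against 1.15 (1.14 to 1.17) at 1 to 2 kb. At 50 kb and more it was 1.08 (1.07 to 1.099) against 0.885 (0.883 to 0.886). The quotient of the dense and other windows was 1.01 (0.997 to 1.03) next to peaks and 1.23 (1.21 to 1.24) farthest from them. At matched distances IgG over Input was 1.12 times higher in the dense windows.

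**Figure D3:**
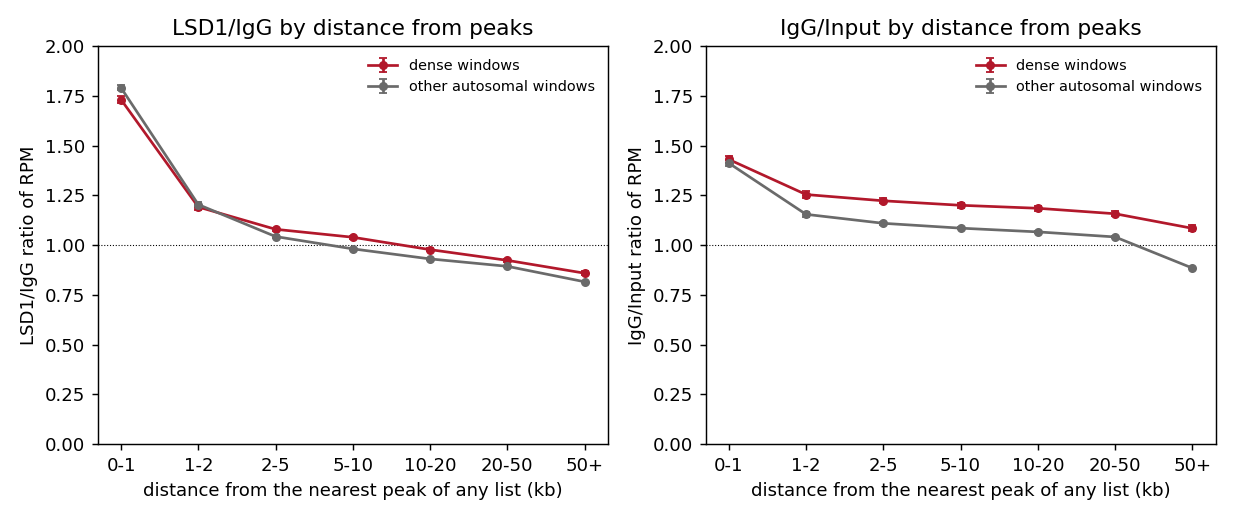
Ratios of RPM are plotted against the distance from the nearest peak of any of the 3 lists, in kb, for the 199 dense and 2200 other autosomal windows of full length with Input reads, with 95% counting intervals mostly smaller than the points. On the left LSD1 over IgG runs nearly together in both sets, from 1.73 and 1.79 next to peaks to 0.859 and 0.816 at 50 kb and more; on the right IgG over Input stays above the other windows from 1 kb outwards.

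Levels per window show the same in reads. Input had a median of 2032 reads per dense window, with 50% of windows between 1934 and 2126, against 1484.5 (1300 to 1706) in the other windows. The dense median was 1.37 times the other in the library made without immunoprecipitation. IgG had a median of 3183 against 1746.5 reads, a ratio of 1.82, and LSD1 4948 against 1957.5, a ratio of 2.53. For H3K4me2 the medians were 6660 and 1875.5 reads. Of the 200 dense windows 186 exceeded the upper quartile of the other windows in Input, 191 in IgG, and all 200 in LSD1. In Input 6 lay below the median of the other windows. They include the partial last window of chromosome 4, which spans 630 kb and was not scaled to its length. LSD1 exceeded IgG in RPM in all 199 dense windows of full length, and IgG exceeded Input in 196 of them. No such count was made over the other windows, where the median RPM was 336 for LSD1, 367 for IgG and 391 for Input. These totals include reads in peaks, and the windows were chosen for many H3K4me2 peaks. Counted only outside peaks and per Mb, the dense windows still had 1.36 times the Input and 1.75 times the IgG of the others. The part of the difference in Input in the other results was not tested.

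After the window of chromosome 11 from 3000001, the dense windows with the most Input reads were 3 more on chromosome 11, from 116000001 with 2340, from 95000001 with 2317 and from 97000001 with 2279, and 1 on chromosome 4 from 132000001 with 2277. These 4 lay close together, just above the upper quartile of 2126. The fewest were 1130 in the partial window at the end of chromosome 4, which spans 630 kb, and 1283 on chromosome 17 from 23000001. Chromosome 7 had 1366 from 20000001 and 1397 from 16000001, and chromosome 18 had 1450 from 37000001. Those 4 full windows held 40 to 60 H3K4me2 peaks and 4 to 11 LSD1 peaks, within the range of the other dense windows, with fewer Input reads.

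**Figure D4:**
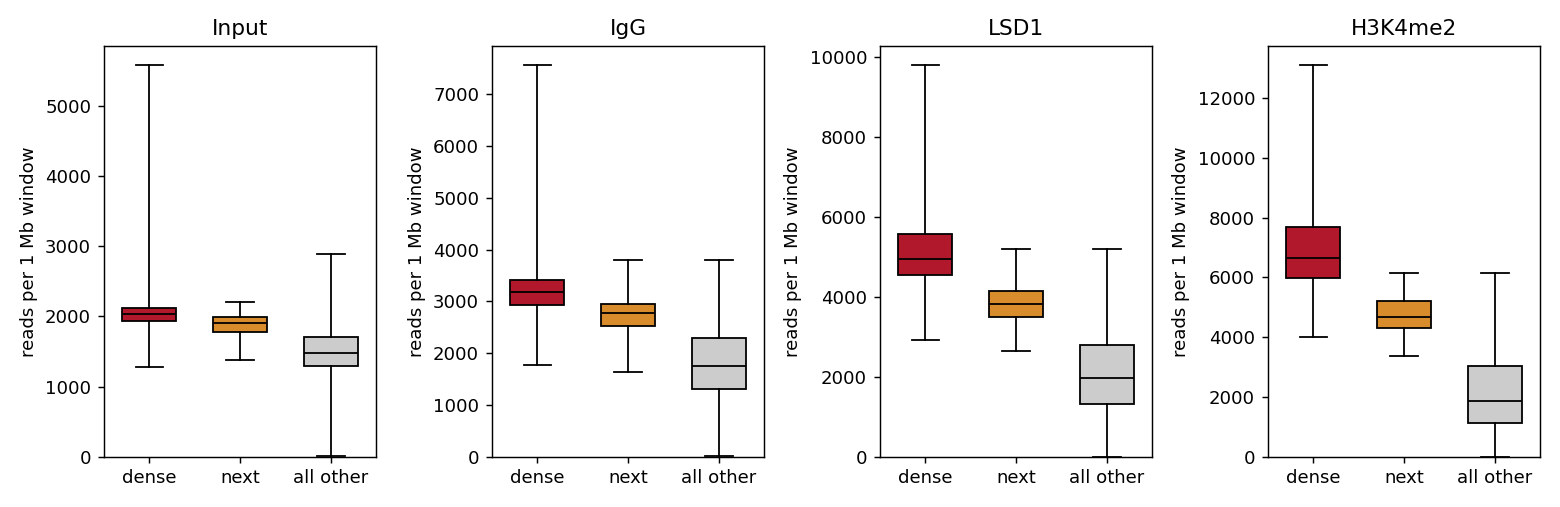
Reads per 1 Mb window are shown for each library, without scaling, for the 199 dense windows of full length, the 199 such windows among the next 200 by rank, and all other autosomal windows of full length with Input reads. The last group includes the windows of the next 200. Boxes span the quartiles with the median as a line, and whiskers run from the lowest to the highest window; the dense medians are 2032 for Input, 3183 for IgG, 4948 for LSD1 and 6660 for H3K4me2, and the long upper whisker of Input is 1 window of chromosome 11.

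LSD1 peaks outside H3K4me2 peaks were a smaller part of all LSD1 peaks in the dense windows, at 122 of 2298 or 5.31% (4.43 to 6.31), against 10.5% (9.40 to 11.7) in the others. In the next 200 windows by rank the part was 6.55% (5.07 to 8.30), with an interval that overlapped the dense one. H3K4me2 peaks also covered more of the windows that the rule chose, and the part of this coverage in the difference was not tested. IgG peaks were few, with 18 of the 140 autosomal IgG peaks in the dense windows. When H3K4me2 peaks within 1 kb were joined into domains, the dense windows held 8009 domains of median width 1095 bp, against 871 bp in the other windows. Of these domains 201 (2.51%) spanned 5 kb or more, against 143 (0.940%) in the others. The domains held an LSD1 peak in 23.3% of cases (22.4 to 24.3) in the dense windows and in 15.0% (14.4 to 15.5) in the others. The median distance between neighbouring H3K4me2 peaks was 4.77 kb in the dense and 12.03 kb in the other windows.

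The dense windows were unevenly placed. Chromosome 11 held 26 of them among its 122 windows (21.3%), chromosome 17 held 18 of 96 (18.8%) and chromosome 19 held 10 of 62 (16.1%). Chromosome 4 held 21 and chromosome 7 held 20. Chromosomes 12 and 16 had 2 each, of 122 and 99 windows. On chromosome 17 the dense windows held 63.2% of all H3K4me2 peaks of the chromosome, and on chromosome 12 they held 9.24%. When each chromosome was cut into 3 equal parts, 104 of the 200 dense windows fell in the last part, where they were 12.5% of windows, 53 in the middle part (6.42%) and 43 in the first part (5.22%). The outside LSD1 to IgG ratio of the dense windows ran from 0.969 to 1.04 over chromosomes. That of the other windows ran from 0.862 to 0.896, so these ranges did not overlap, and the dense windows were higher on 19 of 19 autosomes.

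Neighbouring windows were often dense together. The 200 windows formed 109 runs, of which 57 were single windows, 28 were pairs, 14 held 3 windows and 10 held 4 or more. In all, 143 of the 200 (71.5%) had a dense neighbour. Among the 2200 other autosomal windows of full length with Input reads, 193 lay next to a dense window. The next 200 windows by rank formed 165 runs, and 62 of them (31.0%) had a neighbour of the same rank class; some of their neighbours are dense windows, which are not counted there. The longest run lay on chromosome 17 from 23000001 to 30000000, with 7 windows of 45, 65, 60, 51, 64, 66 and 88 H3K4me2 peaks and 11, 14, 18, 7, 12, 18 and 11 LSD1 peaks. The windows on either side held 5 and 21 H3K4me2 peaks, next to 45 and 88 in the first and last windows of the run. The last window, fullest in H3K4me2 peaks, had no more LSD1 peaks than the first. LSD1 to IgG in its H3K4me2 peaks was 3.41 (3.25 to 3.58), the value of the dense windows as a whole.

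On chromosome 11 from 94000001 to 99000000, 5 windows held 46, 71, 52, 123 and 70 H3K4me2 peaks and 8, 11, 8, 30 and 21 LSD1 peaks. The windows on either side had 8 and 2 H3K4me2 peaks. On chromosome 1 from 134000001 to 139000000, 5 windows held 53, 43, 40, 44 and 52 H3K4me2 peaks and 4, 7, 3, 8 and 13 LSD1 peaks. This run had the lowest share of H3K4me2 peaks with LSD1 of the 10, at 14.2% (9.998 to 19.4). The highest share was that of chromosome 19 from 4000001 to 8000000, at 23.9% (19.3 to 29.1), with 74, 107, 65 and 63 H3K4me2 peaks and 16, 35, 16 and 15 LSD1 peaks. The intervals of these 2 runs just overlapped.

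A run of 4 windows on chromosome 7 from 28000001 to 32000000 held 313 H3K4me2 and 69 LSD1 peaks. That of chromosome 4 from 132000001 to 136000000 had 312 and 51, and that of chromosome 2 from 29000001 to 33000000 had 241 and 51. Chromosome 15 from 97000001 to 101000000 held 204 and 36, and chromosome 19 from 44000001 to 48000000 held 204 and 40. The run of chromosome 18 from 35000001 to 39000000 held 195 and 34. Outside peaks LSD1 to IgG was 1.11 (1.08 to 1.14) on chromosome 4, 1.09 (1.06 to 1.12) on chromosome 7 and 1.08 (1.05 to 1.103) on chromosome 11, and 0.976 (0.953 to 1.00) on chromosome 2. In H3K4me2 peaks the 10 runs lay between 3.30 (3.07 to 3.56) on chromosome 15 and 3.70 (3.44 to 3.99) on chromosome 18. Chromosome 2 had the highest IgG to Input ratio outside peaks, 1.32 (1.28 to 1.36), and chromosome 18 the lowest, 1.06 (1.03 to 1.09).

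**Figure D5:**
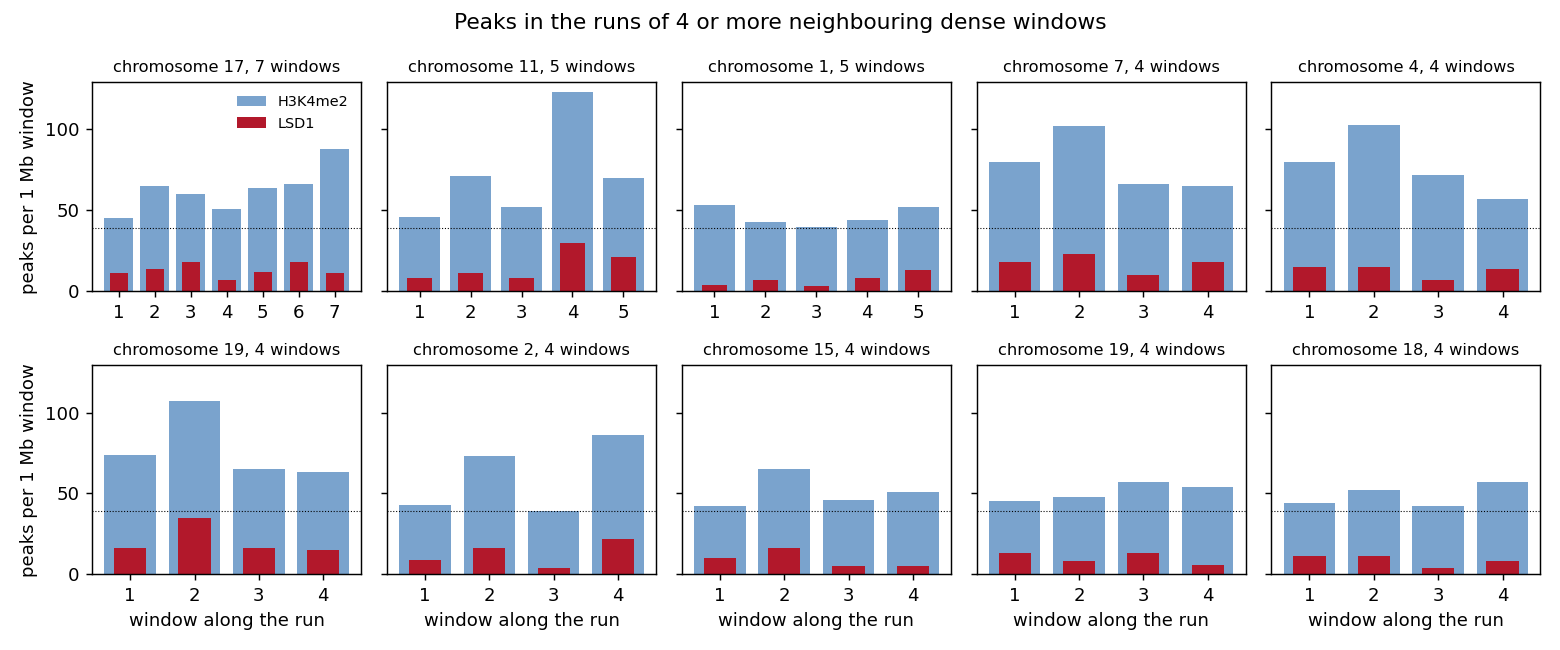
Bars give the peaks per 1 Mb window along each of the 10 runs of 4 or more neighbouring dense windows, H3K4me2 in blue and LSD1 in red inside it, with the limit of 39 H3K4me2 peaks dotted. Within the runs LSD1 peaks do not always follow the H3K4me2 peaks, as in the last window of the 7 on chromosome 17, with 88 and 11.

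Single dense windows and those in runs differed in part. The share of H3K4me2 peaks with an LSD1 peak was 15.7% (14.4 to 17.1) in the 57 single windows, 18.8% (17.9 to 19.9) in the 98 windows of runs of 2 or 3, and 18.5% (17.1 to 19.98) in the 45 windows of longer runs. Single windows also held fewer H3K4me2 peaks, with a median of 46 against 56 and 57. Outside peaks LSD1 to IgG was 0.983 (0.976 to 0.990) in single windows and 1.03 (1.02 to 1.03) in the longer runs. Beyond the dense windows the outside LSD1 to IgG ratio was lower at each greater distance, and the share fell less evenly. The 193 windows next to a dense one had a median of 18 H3K4me2 peaks, a share of 13.9% (12.8 to 15.1) and an outside LSD1 to IgG ratio of 0.918 (0.914 to 0.922). At 3 windows away these were 6 peaks, 11.8% (10.0 to 13.7) and 0.880 (0.875 to 0.885). At 7 or more windows away they were 4 peaks, 11.1% (10.5 to 11.7) and 0.863 (0.861 to 0.865).

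Among the 200 dense windows, the number of H3K4me2 peaks and the number of LSD1 peaks had a Spearman correlation of 0.701. With the LSD1 to IgG ratio outside peaks it was 0.488, and with that in peaks 0.128. These are descriptions over windows that share libraries, were chosen on the first count and are often neighbours. Of the 200 windows with the most LSD1 peaks, at least 7 each, 149 (74.5%) were dense windows, which make up 8.06% of all windows. Only 8.16% of autosomal LSD1 peaks lay outside H3K4me2 peaks, whose count chose the dense windows, so this overlap is a description too.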

How the data were processed

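The authors deposited aligned reads of 36 bases for each library and peak lists for IgG, LSD1 and H3K4me2, with mm9 as the build per the submitters' processing notes. Which aligner and peak caller made them, and with which threshold and control, is not given in the sources used here. Both kinds of file hold positions alone, with no score or p-value. No start and strand was repeated within a library. Read starts were moved 100 bp along their strand and counted in windows and peaks. RPM stands for reads per 1000000 of a library's reads. A peak belongs to the window of its centre, and chromosome ends were taken as the last read. Levels, quartiles, calls of single windows, classes and distances used the 2399 windows of full length with Input reads, so that 1 dense window, the partial last window of chromosome 4, is left out there. For ratios the intervals are exact binomial, given the total of the 2 counts, for shares exact Clopper-Pearson, for LSD1 peaks per 100 H3K4me2 peaks exact Poisson, and for quotients of ratios Poisson error on the log scale. A count of 0 would allow 3 reads, or 0.631 RPM in IgG. The single-window ratio was tested on simulated data over 2399 windows: the interval lay above 1 in 85% of windows with a 1.1-fold change, 97% with a 1.2-fold change and 2.73% of unchanged ones. Both simulated libraries were Poisson draws around the IgG reads of each window, with unchanged windows set at a ratio of 1. The 2.73% therefore follows from how the interval is built. It gives no error rate for the real windows, where regional differences between libraries were not simulated.

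The members, comparisons and alternatives were chosen with earlier results of these data known. Named windows are the 10 with the most H3K4me2 peaks, the 5 highest and lowest in LSD1 peaks per H3K4me2 peak, in the outside LSD1 to IgG ratio and in Input, all runs of 4 or more windows, and 2 on each side of the limit. The window of chromosome 9 from 114000001 was named outside this rule, after its values were seen. Weighting by LSD1 reads and by distance, another order of ties and leaving out the dense window with the most Input reads were chosen after seeing the data. The gene and sequence tables at hand are for GRCm38.p6, so no gene was assigned and no sequence is shown. Scripts ran on Python 3.11.15 with scipy 1.17.1, numpy 2.4.6 and pandas 2.3.3, and figures on matplotlib 3.10.9.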

Additional observations from a re-analysis of the deposited data

How the results depend on the processing

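Alternatives gave 138 values for 14 results: 87 lay within the interval of the value in use, or within 1.5 times for counts of windows, 48 moved and 3 changed direction. No paired analysis was possible because no group had a second library. For in-peak LSD1 over its control, dense over other windows, 1.01 became 0.953 with Input as the control, 1.03 with windows starting at 0.5 Mb, 1.03 without chromosome 11 and 1.03 without the dense window with the most Input reads. For H3K4me2 in peaks, 0.980 became 1.002 (0.991 to 1.01) with windows starting at 0.5 Mb and 0.993 with 400 windows of 0.5 Mb. It became 0.997 without chromosome 11, 0.9999 without the dense window with the most Input reads and 0.921 with Input. The 3 values that changed direction were this 1.002, the 0.953 for LSD1 with Input and the 0.989 at matched LSD1 reads given below. Outside peaks LSD1 gave 1.43 with Input, 1.22 with no margin, 1.13 with a margin of 5 kb, 1.18 with windows of 0.5 Mb and 1.04 at matched distances, and H3K4me2 gave 1.67, 1.45, 1.28, 1.41 and 1.08. The share of H3K4me2 peaks with an LSD1 peak, 1.49 times higher in dense windows, was 0.989 times that of the others at matched LSD1 reads per peak. LSD1 peaks per 100 H3K4me2 peaks were 21.6 in the first 100 windows, 18.0 in the first 400 and 28.3 per 100 domains. Median Input was 1.38 times the other windows' with windows starting at 0.5 Mb and 1.42 with windows of 0.5 Mb. Median IgG was 1.87 with the latter and 1.75 outside peaks. With windows of 0.5 Mb, 239 of 400 lay in runs. The cause of these changes was not tested, and the weightings, chosen after seeing the data, do not identify one. Genes in the windows were not run.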
